A study of Mus musculus with 48 samples.

Results

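The response of the hippocampal m6A landscape to spatial training was examined in wild-type (WT) mice of 8 months by comparing the m6A-IP peak lists of 3 trained animals with those of 3 naive animals, which are 6 of the 24 m6A-IP libraries of the series and 2 of its 8 conditions. The members were taken from the condition that the sample labels give each animal, and the 1 deposited table that sets these 2 conditions against each other was read beside them. Both groups were male HdhQ7/7 mice, the wild-type genotype of a huntingtin knock-in line, on a C57BL/6 background. Trained mice were habituated to an open field for 2 days, 10 min a day, met objects and wall cues there for 10 min on day 3 (the training session of the object location task), and were killed 30 min later, while naive mice were not trained. Each library is bulk hippocampal RNA of a different animal, so a change in the number of cells of a type and a change in RNA per cell cannot be told apart.

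N6-methyladenosine (m6A) is the most common internal mark of mRNA, written while the transcript is being made, mostly at a GGAC core and its close variants, and read by proteins that act on splicing, export, translation and decay. In neurons the mark lies on many transcripts of synaptic proteins and on the immediate-early genes, whose transcription starts within minutes of neuronal activity. In MeRIP-seq, an antibody against m6A enriches the marked RNA fragments, and places where reads of this immunoprecipitate (IP) exceed those of the animal's own untreated input are called as peaks. A peak has a fold enrichment, its IP signal over the input, which sets it against the amount of the transcript. How fully this ratio corrects for that amount, above all where the input is low, was not tested. The number of IP reads under a peak also follows how much of the transcript there is.

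The following 30-base windows of the mouse genome mm9 (NCBIM37) show where the peaks discussed below lie. Each is the stretch of the transcribed strand around the GGAC nearest to the summit of a region, with the GGAC in capitals, and the immediate-early genes come before 2 intronic regions that had a peak in all trained and no naive animal and 2 with the opposite pattern.
Fos, 3'UTR, chr12:86817549-86817578, plus strand: ctgtgggcctcaaGGACttgcaagcatcca
Egr2, CDS, chr10:67003069-67003098, plus strand: ttccctgtcctctGGACtccctgcgagtgc
Arc, 3'UTR, chr15:74501534-74501563, minus strand: cttttgccaactaGGACttgagctggggct
Egr4, 3'UTR, chr6:85461388-85461417, minus strand: ccagcctctctggGGACagtcctctcggtc
Maff, 3'UTR, chr15:79188874-79188903, plus strand: gaacagtaccccgGGACtgaataacatggt
Nr4a1, CDS, chr15:101100970-101100999, plus strand: agctttctccctgGGACggctcatttggcc
Sik1, CDS, chr17:31983272-31983301, minus strand: ggctgccacagggGGACtgtgagatggagg
Rps6ka5, intron, chr12:101839484-101839513, minus strand: agagtgagctccaGGACagccagggccaca
Slc24a2, intron, chr4:86649349-86649378, minus strand: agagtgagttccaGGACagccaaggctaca
Lphn3, intron, chr5:82253982-82254011, plus strand: ccatcccgaaacaGGACacaggacttatgg
Lcmt1, intron, chr7:130528347-130528376, plus strand: gccttgaagatatGGACacaggggaaaaaa
The adenosine of GGAC lay 8 bases after the summit along the transcript at Fos, 3 after it at Egr2 and 20 after it at Egr4, and its position was -14 at Nr4a1, -1 at Sik1 and -33 at Arc. The windows of Rps6ka5 and Slc24a2, in different genes on different chromosomes, are identical at 27 of 30 bases. Whether these windows belong to a repeated sequence of the genome was not tested. GGAC, searched on the transcribed strand within 100 bp on the summit, was found in 34.9% of gained regions (74 of 212 that lie in 1 gene), 40.9% of lost regions (27 of 66) and 38.9% of all regions with a peak in any of the 6 animals, and a match is a description of sequence only.

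Trained and naive animals had similar numbers of peaks. The 3 trained animals had 32937, 37231 and 43557 peaks, and the 3 naive animals 29783, 41483 and 33262. The ranges overlapped, with means of 37908 ± 5342 in trained and 34843 ± 6008 in naive animals (SD, n = 3 each), and the difference of 3066 was within the spread between animals (2-sided exact permutation test, p = 0.6, where the smallest p that 3 against 3 animals allow is 0.1). Peaks covered 16.1, 19.9 and 16.4 Mb in trained animals and 16.7, 14.9 and 22.8 Mb in naive animals (exact permutation p = 0.8). The number of reads behind each library is not given in the data read here, so depth is known only through these numbers.

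One animal of each group stood apart, with many short peaks. Trained animal 3 had a median peak length of 233 bp, against 338 and 364 bp in the other trained animals, and naive animal 2 one of 213 bp, against 402 and 485 bp in the other naive animals. The difference in peak number was 241.3 without trained animal 3, 6386 without naive animal 2 and 3562 without both, and the counts that rest on them are also given without them. Between any 2 of the 6 lists, 55.2% to 66.1% of the regions called in either were called in both, and log2 fold enrichment correlated with r = 0.58 to 0.70, so no 2 lists were copies of each other. Animals of the same group were no more alike than animals of different groups, at 55.2% to 62.7% within and 56.9% to 66.1% between groups.

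**Figure D1:**
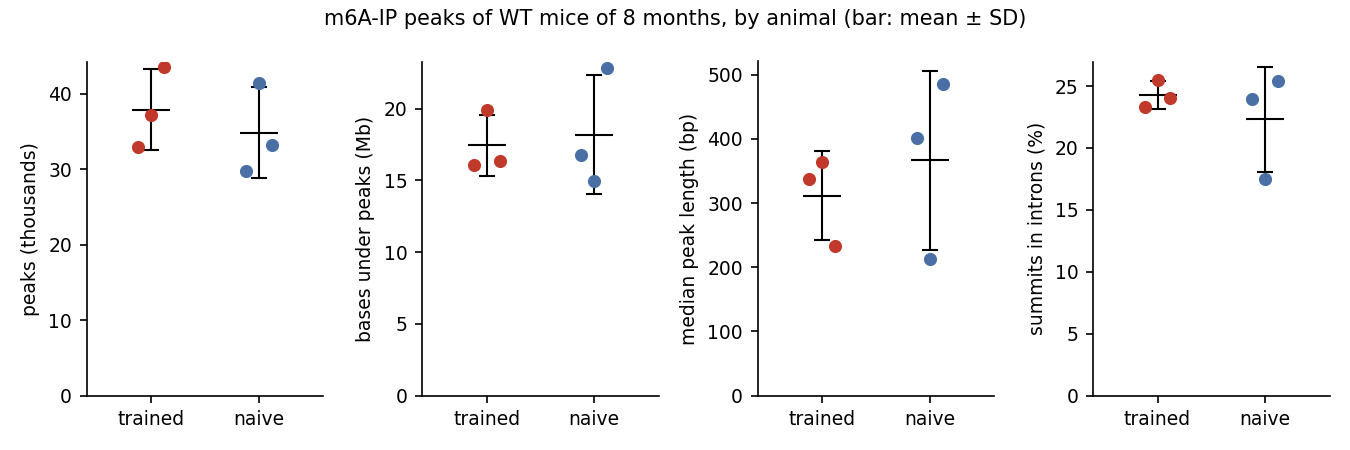
Number of peaks (in units of 1000), bases under peaks (Mb), median peak length (bp) and share of summits in introns (%) for each of the 3 trained and 3 naive WT mice of 8 months, with points for animals and bars for mean ± SD. The groups overlap in all 4 panels, and naive animal 2 has the shortest peaks (213 bp) and the smallest share of intronic summits (17.5%).

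The place of peaks along the transcript was also alike. Summits in coding sequence (CDS) made up 30.3%, 31.4% and 33.9% in trained and 31.1%, 40.5% and 32.8% in naive animals, and summits in 3'UTRs 18.6% ± 1.22 in trained and 18.1% ± 1.25 in naive animals (SD, n = 3 each). Introns held 24.3% ± 1.10 of summits in trained and 22.3% ± 4.22 in naive animals, and the lowest value, 17.5%, was that of the naive animal with short peaks. None of the 4 shares (CDS, 3'UTR, 5'UTR and intron) differed beyond the spread between animals (exact permutation tests, p = 0.3 to 0.7, adjusted p = 0.7 for each). GGAC, searched on the transcribed strand, was within the 100 bp on the summit in 43.0%, 41.7% and 39.3% of windows in trained and 42.8%, 41.1% and 42.0% in naive animals (exact permutation p = 0.7). In the same windows moved by 1000 bp along the gene the share was 26.8% to 27.2% in trained and 26.2% to 27.4% in naive animals.

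Fold enrichment of the IP over the input was then compared region by region. Overlapping peaks of the 24 animals were merged to 81807 regions, of which 54365 had a peak in at least 1 of the 6 animals and 18431 in all 6. In these 18431 regions, limma found 0 regions with higher and 0 with lower enrichment in trained animals at an adjusted p under 0.05 (0% in each direction), and the smallest adjusted p was 0.999. At an unadjusted p under 0.05 there were 792 regions, or 4.3% of those fitted. The count of 0 stood under every alternative scaling and selection of regions and without each animal in turn, with 613 to 1100 regions at an unadjusted p under 0.05. The quartiles of the fitted differences were -0.21 and 0.21 on the log2 scale with a median standard error of 0.32, and 99.4% of them were smaller than 1.

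The regions with the smallest p missed the threshold and are given as values. On the side of higher values in trained animals, Kcnn1, which encodes the SK1 calcium-activated potassium channel, had a fold enrichment of 7.27, 9.91 and 5.73 in trained and 2.18, 2.65 and 3.53 in naive animals over its CDS (chr8:73378980-73379442). The groups did not overlap, and the fitted log2 difference was 1.44 ± 0.31 (SE, limma, adjusted p = 0.999). An intron of Crtac1, a secreted matrix protein, had 9.47, 10.3 and 10.2 in trained against 3.34, 5.30 and 3.52 in naive animals. The others of this side were an intron of Clgn, a chaperone of the endoplasmic reticulum (log2 difference 1.51), an intron of Nhedc2, a sodium-proton exchanger (10.4, 16.4 and 8.77 in trained, 2.52, 5.39 and 4.84 in naive animals), and the 3'UTR of Eml3, a microtubule-binding protein (1.32).

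On the side of lower values, the region of smallest p was the CDS of Mcee, methylmalonyl-CoA epimerase, with 1.79, 1.77 and 1.99 in trained and 3.26, 4.43 and 3.87 in naive animals and a log2 difference of -1.06 ± 0.21 (SE, limma, adjusted p = 0.999). Syn3, a synapsin of synaptic vesicles, had 2.76, 2.18 and 4.33 in trained and 7.65, 6.16 and 9.32 in naive animals over a stretch of its CDS (chr10:85929778-85930374), a log2 difference of -1.37. The deposited mean level of the Syn3 peak was also lower in trained (7.68) than in naive animals (8.95). Clcc1, a chloride channel of the endoplasmic reticulum (-1.23), the 3'UTR of Tmem170 (-1.35) and the 3'UTR of Trappc9, part of a vesicle-tethering complex (-1.09), completed the 5. All 10 kept their sign under every alternative in which they could be fitted. They were chosen for small p in these same 6 animals, and in each the groups did not overlap. The kept sign is therefore no further support. Over all regions fitted, the 3 trained animals lay above the 3 naive animals in 826 (4.48%) and below them in 759 (4.12%).

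The deposited table gives another quantity, the authors' mean level of each group on a log2 scale. Whether the input was subtracted from this level is not given in the sources used here. The table covers 8083 distinct peaks that the authors selected with a test of their own. Since these were selected on this comparison, their levels are described without a test. Of the 8083 peaks, 471 (5.83%) stood over 1 higher and 239 (2.96%) over 1 lower in trained animals, and 49.6% were higher by any amount. The levels ran the same way as the calls: of the 471 peaks over 1 higher, 318 lay in regions called in more trained than naive animals and 6 in regions called in fewer. Of the 239 peaks over 1 lower, 98 lay in regions called in fewer trained animals and 15 in regions called in more. The order of the naive and trained columns was itself checked against the calls, so this agreement is not a separate result. In 18 of the 471 the naive group and in 17 of the 239 the trained group stood at the lowest level in the table, so their differences are not used as sizes below.

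The immediate-early genes mostly had higher levels in trained animals. Of a list of 45 such genes, 43 had a peak in at least 1 of the 6 animals, all but Rheb and Plk3, and each animal had peaks in all 43. Among the listed peaks, 59 belonged to 35 of these genes, of which 50 (84.7%) had a higher level in trained animals, against 49.6% of all listed peaks, with a median difference of 0.49 against -0.09 over all listed peaks. Of the 59, 13 were over 1 higher and 0 over 1 lower. The list was drawn up with earlier results of these data known and is a description.

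The largest differences were at genes of the first wave of induced transcription. The peak of Egr2, a zinc finger transcription factor, had a mean level of 11.71 in trained and 9.84 in naive animals, a difference of 1.87. Homer1, a postsynaptic scaffold gene, has a short induced form (Homer1a) that ends early in its own 3'UTR, and the peak in a 3'UTR that lies ahead of later coding exons (chr13:94136211-94136797) had levels of 10.71 in trained and 8.85 in naive animals, a difference of 1.86. The peak at the start of Homer1, which all its forms share, had levels of 14.23 in trained and 14.04 in naive animals, a difference of 0.19. Fos, a subunit of the AP-1 transcription factor, had a difference of 1.76 at the end of its transcript (10.97 in trained, 9.21 in naive animals) and of 1.65 further upstream (9.49 in trained, 7.84 in naive animals).

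Other members with differences over 1 were Maff, a small basic leucine zipper factor (1.32), and the secreted matrix protein Cyr61 (1.04 to 1.29 in 3 peaks). The salt-inducible kinase Sik1 had 1.11 at a peak centred in its 3'UTR, in a region with its summit in the CDS. An intron of Sik1 stood at 8.21 in trained and 6.91 in naive animals. Fosb in its 5'UTR (1.11), an intron of Fosl2 (1.13) and an intron of the phosphatase Dusp5 (1.01) were also over 1 higher. Below 1 but still higher in trained animals were the phosphatase Dusp1 (0.91), the dendritic protein Arc (0.87), the antiproliferative factor Btg2 (0.81), the nuclear receptor Nr4a1 (0.79), the neuronal factor Npas4 (0.75), Ier2 (0.75), Junb (0.62) and Egr1 (0.45). The 9 peaks with lower levels in trained animals were in Dusp4 (3 peaks, to -0.62), Klf6 (-0.55), Ptgs2 (-0.41), Trib1 (-0.30), Plk2 (-0.19), Jund (-0.13) and Ier5 (-0.10). Genes of the list with a peak but none listed in the table were Bdnf, Nr4a3, Klf10, Ier3, Nptx2, Egr3, Crem and Sgk1.

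Fold enrichment over the input at the same genes showed no such shift upwards. Of the 69 regions of the list that had a peak in all 6 animals, 0 passed in either direction (limma, smallest adjusted p 0.999, with 2 regions at an unadjusted p under 0.05), and 46 lay below and 23 (33.3%) above 0, against 50.1% below and 49.9% above 0 over all regions fitted. The median log2 difference was -0.16 for these regions and -0.01 for all regions fitted in genes. By animal, the median log2 enrichment of the 69 regions relative to that of all fitted regions was -0.33, -0.18 and -0.00 in trained and -0.17, 0.05 and -0.11 in naive animals, so the groups overlapped. In 46 regions that were both fitted and listed, 39 had a higher deposited level in trained animals and 13 a higher enrichment.

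At Fos the fold enrichment over the 3'UTR (chr12:86816338-86817837) was 3.96, 5.01 and 4.62 in trained and 4.39, 11.3 and 3.73 in naive animals. The groups overlapped, naive animal 2 alone was high, and the log2 difference of -0.35 ± 0.37 (SE, limma, adjusted p = 0.999) became 0.12 without that animal. Egr2 had 9.12, 6.29 and 10.4 in trained and between 8.38 and 12.3 in naive animals over chr10:67002278-67004379, a log2 difference of -0.32 ± 0.32 (SE). Here too the groups overlapped, while the deposited level differed by 1.87.

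The short 3'UTR of Homer1 had an enrichment of 4.67, 5.23 and 5.80 in trained and 5.87, 6.44 and 5.73 in naive animals, a log2 difference of -0.21 ± 0.29 (SE). Arc, whose mRNA is carried into dendrites, had 2.37, 2.96 and 2.86 in trained and 3.89, 4.97 and 3.18 in naive animals over chr15:74501028-74503025, a log2 difference of -0.55 ± 0.26 (SE, limma, adjusted p = 0.999). At Arc all 3 trained animals were below all 3 naive animals. Npas4 behaved alike, with 5.71, 6.10 and 7.37 in trained and 9.84, 9.53 and 7.80 in naive animals and a log2 difference of -0.51 ± 0.30 (SE).

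Egr4, a factor of the Egr family, had the largest fall in fitted value of the list, which missed the threshold. Its enrichment was 4.22, 4.89 and 2.28 in trained and 4.96, 10.8 and 6.07 in naive animals over the 3'UTR (chr6:85461124-85463978), a log2 difference of -0.94 ± 0.36 (SE, limma, adjusted p = 0.999). The groups did not overlap at Egr4, nor at Jun (2.96 to 3.02 in trained, 3.05 to 4.75 in naive animals) and at 1 of 3 CDS regions of Dusp6 (3.02 to 4.39 in trained, 4.44 to 5.99 in naive animals). The only region of the list in which all trained animals lay above all naive animals was the CDS of Klf10, a Krüppel-like factor, with 5.62, 5.69 and 6.85 in trained and 4.16, 3.72 and 5.10 in naive animals. Altogether the groups did not overlap in 5 regions that were lower and 1 that was higher in trained animals, and the shares over all regions fitted were 4.12% lower and 4.48% higher.

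A few immediate-early genes had higher values of both quantities. Maff had an enrichment of 7.75, 6.26 and 9.88 in trained and 4.85, 6.41 and 4.58 in naive animals over its 3'UTR, a log2 difference of 0.58 ± 0.31 (SE, limma, adjusted p = 0.999) beside a level difference of 1.32. The 3'UTR of Cyr61 had 14.3, 11.9 and 7.00 in trained and 11.2, 6.27 and 7.23 in naive animals, a log2 difference of 0.40 ± 0.37 (SE), and its level differed by 1.20. In both genes the groups overlapped. Over the 5488 regions that were fitted and listed, 95 had a level over 1 higher in trained animals, and 71 of these (74.7%) had a higher fitted enrichment, whereas of the 8 immediate-early regions among them 4 did. The rank correlation of the 2 quantities over the 5488 regions was 0.33, a description over regions that share the same IP libraries.

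**Figure D2:**
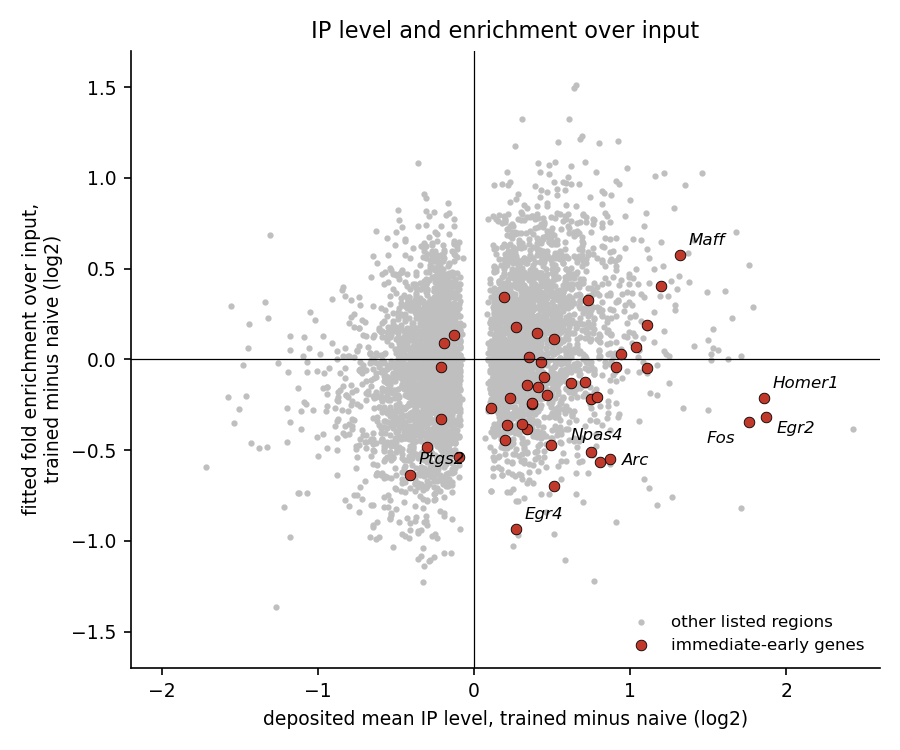
Difference in deposited mean level (x axis, log2, trained minus naive) against the fitted difference in fold enrichment over input (y axis, log2, trained minus naive) for the 5488 regions that were fitted and listed, with 6 regions beyond the plotted range of levels. Red points are regions of immediate-early genes, of which 39 of 46 lie right of 0 and 33 of 46 below 0. The empty band around a level difference of 0 comes from the selection of peaks for the table.

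**Figure D3:**
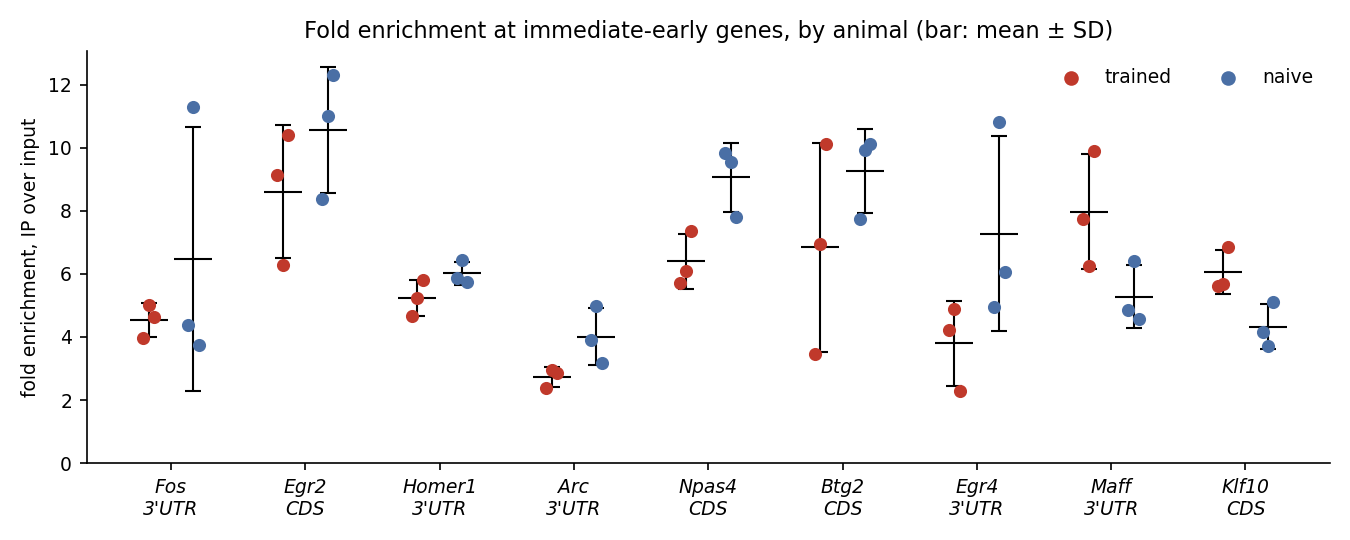
Fold enrichment of the IP over the input (y axis, linear) at 9 regions of immediate-early genes in each trained and naive WT mouse of 8 months, with bars for mean ± SD. All trained animals lie below all naive animals at Arc, Npas4 and Egr4 and above them at Klf10, and the groups overlap at Fos, Egr2, Homer1, Btg2 and Maff.

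Input libraries were not analysed, so the transcript amounts of these genes were not measured, and their part in the deposited levels was not tested. The markers of other cell types and regions give the following values beside these results. All 5 listed peaks of striatal markers had higher levels in trained animals, among them Adora2a (1.53), Rgs9 (0.90), Penk (0.71) and Ppp1r1b (0.58), and all 3 of choroid plexus markers did, in Clic6 (2.63), Prlr (0.98) and Kl (0.51). Of 8 striatal markers 7 had a peak in each trained and 6 to 7 in each naive animal, and Tac1 had none. Of 10 choroid plexus markers 4 to 6 had a peak in trained and 4 to 5 in naive animals, and Ttr, Aqp1 and Folr1 had none in any of the 6. The fitted enrichment of these markers had a median log2 difference of 0.06 in 5 striatal and -0.07 in 7 choroid plexus regions. The share of these sources in the levels of other genes was not tested. Glial markers also had higher levels in trained animals, at 8 of 8 listed peaks for astrocytes, 3 of 3 for oligodendrocytes and 3 of 3 for microglia. Interneuron and endothelial markers had 4 of 5 listed peaks higher in each list. Markers of the tissue itself were called in all animals, with 6 to 7 of 8 for CA1, 4 to 6 of 8 for CA3 and 7 of 10 for the dentate gyrus. In the dentate gyrus list 12 of 14 listed peaks were lower in trained animals (median -0.22). For CA1 5 of 7 were lower, and for CA3 3 of 4 were higher.

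Away from the immediate-early genes, the direction of the deposited levels went with the part of the transcript. Of 2491 listed peaks in introns, 1642 (65.9%) had a higher level in trained animals, with a median difference of 0.47. In coding sequence 1062 of 2864 (37.1%) were higher, with a median of -0.17, and in 5'UTRs 133 of 527 (25.2%), with a median of -0.26. Peaks in 3'UTRs lay between, with 868 of 1561 (55.6%) higher and a median of 0.16. Of the 471 peaks over 1 higher in trained animals 317 were intronic and 66 in coding sequence, and of the 239 over 1 lower 95 were intronic and 77 in coding sequence.

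Genes of the synapse followed this division within themselves. Among presynaptic genes, 34 of 37 listed intronic peaks were higher in trained animals and 3 of 19 in coding sequence. Among postsynaptic genes the counts were 40 of 55 and 2 of 31, among voltage-gated channels 36 of 46 and 1 of 28, and among glutamate receptors 18 of 30 and 1 of 17. The synaptic adhesion genes, which hold pre- and postsynaptic membranes together and are mostly very long, had 86 of 101 intronic peaks and 5 of 14 peaks in coding sequence higher. The immediate-early genes had 24 of 28 peaks in coding sequence higher. Intronic differences were modest in size, with medians of 0.45 for presynaptic and postsynaptic genes, 0.51 for glutamate receptors, 0.59 for synaptic adhesion genes and 0.64 for voltage-gated channels.

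**Figure D4:**
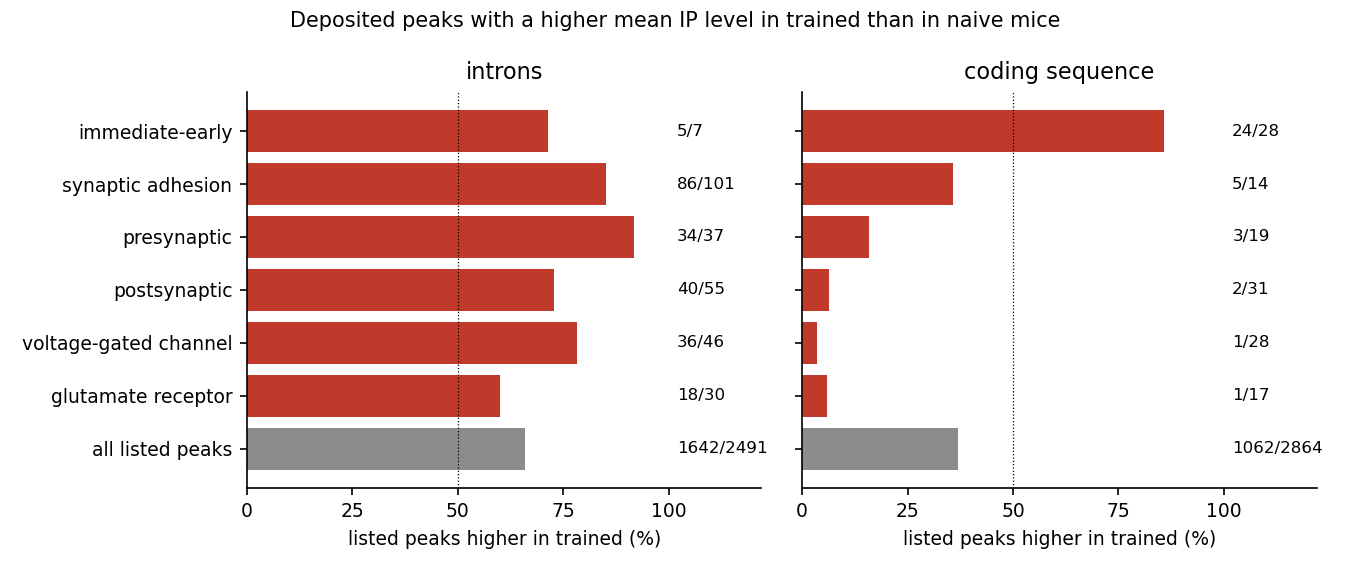
Share of listed peaks with a higher deposited mean level in trained than in naive mice (x axis, %), for peaks centred in introns (left) and in coding sequence (right), with counts beside each bar and the value for all listed peaks in grey. Intronic peaks are mostly higher (1642 of 2491) and coding peaks mostly lower (1062 of 2864 higher), while 24 of 28 coding peaks of the immediate-early genes are higher.

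Fold enrichment over the input gave the same order in a weaker form. Of the fitted regions 57.1% in introns, 51.9% in 3'UTRs, 45.5% in coding sequence and 42.6% in 5'UTRs had a difference above 0, with medians of 0.06, 0.01, -0.03 and -0.07. The order was then read by animal, where the exact permutation test of 3 against 3 animals cannot give a p under 0.1. The median log2 enrichment of intronic regions less that of coding regions was 0.12, 0.15 and 0.22 in trained and 0.17, 0.02 and 0.03 in naive animals (exact permutation p = 0.3, adjusted p = 0.45 over 3 parts). Naive animal 1 was among the trained values, and the low naive values came from animals 2 and 3. For 3'UTRs less coding sequence the values were 0.04, 0.02 and 0.03 in trained and 0.00, 0.02 and -0.08 in naive animals (exact permutation p = 0.1, the smallest possible, adjusted p = 0.3), where the groups did not overlap. For 5'UTRs less coding sequence they were -0.20, 0.01 and -0.05 in trained and -0.09, -0.12 and 0.01 in naive animals, and the groups overlapped.

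Among peaks with both groups above the lowest level, the largest difference on the higher side was in the 3'UTR of Rims1, which encodes a scaffold of the presynaptic active zone, with levels of 8.35 in trained and 2.04 in naive animals, and a peak was called in 3 trained and 1 naive animal. An intron of Agtpbp1, an enzyme that shortens polyglutamate chains of tubulin, followed with 6.17 in trained and 0.31 in naive animals, although 2 animals of each group had a call. The others were in Ndst4 (4.81 higher), Cpne8 (4.32), Cadm1 (4.30), Rap1gds1 (4.06), Cpne4 (3.96), A830018L16Rik (3.73), Rgs7, a regulator of G protein signalling (3.53), and Srrm4, the activator of neuronal microexon splicing (3.53). In Cpne8, Cpne4, Rgs7 and Srrm4 the calls were in all 3 trained and in no naive animal. Cadm1 had a call in 2 animals of each group, and A830018L16Rik in 3 trained and 2 naive animals. The naive levels of these peaks were low, at 0.31 to 2.98 against a median of 9.34 over all listed peaks.

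On the lower side, 7 of 10 peaks were in coding sequence. Hnrnpa3, an RNA-binding protein, had levels of 2.37 in trained and 8.36 in naive animals in an intron, Gipc1, a PDZ protein, 1.45 in trained and 7.29 in naive animals, and Rnft2 0.87 in trained and 6.54 in naive animals. In Hnrnpa3 and Gipc1, 2 animals of each group had a call, so calls did not separate the groups, and in Rnft2 a peak was called in 1 trained and 3 naive animals. The cell adhesion molecule Dscam (-4.06), the adhesion receptor Lphn2 (-3.95), Sec16a (-3.83), the lysosomal ATPase Atp13a2 (-3.82), 6230409E13Rik (-3.79) and Gm17324 (-3.60) followed. At Gipc1, Dscam, Lphn2, Atp13a2 and Gm17324 the peak was called in animals 2 and 3 of each group and in animal 1 of neither. The trained levels on this side were low, at 0.87 to 3.55 against a median of 9.35 over all listed peaks.

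Regions gained and lost were counted from calls alone. A peak in all 3 trained and no naive animal was found in 303 regions (0.557% of the 54365 with a peak in any of the 6), and a peak in no trained and all 3 naive animals in 97 (0.178%). This balance depended on the number of peaks per animal: when each animal was cut to its 29783 best peaks, there were 151 gained and 194 lost regions, of which 73 and 43 were among the 303 and 97. The median -log10 q of the calls was 5.88 in gained and 5.77 in lost regions, against 10.7 in all regions called. Of all regions called in any of the 6 animals, 30.4% were in introns and 30.1% in coding sequence. A further 20.9% were outside protein-coding genes, 13.4% in 3'UTRs and 5.23% in 5'UTRs. Gained regions were in introns in 150 (49.5%), outside protein-coding genes in 83 (27.4%) and in 3'UTRs in 33 cases (10.9%). They were in coding sequence in 29 (9.57%) and in 5'UTRs in 8 cases (2.64%). Lost regions were in introns in 31 (32.0%), outside genes in 24 (24.7%) and in coding sequence in 19 cases (19.6%). They were in 5'UTRs in 15 (15.5%) and in 3'UTRs in 8 cases (8.25%). Whether these shares differ from those of all regions called was not tested.

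The 10 gained regions with the strongest calls were in introns, except for 3'UTRs of Auts2 and Smyd3. An intron of Ncam1, the neural cell adhesion molecule (also annotated as Gm11149), had a fold enrichment of 5.54, 5.83 and 2.33 in the trained animals. An intron of Ndst3, which modifies heparan sulfate, had 2.85, 11.1 and 9.26, and an intron of Samd12 had 9.92, 7.67 and 9.98. A second region of Rims1, in an intron (chr1:22754750-22755133), had 2.38, 2.98 and 4.98 in trained animals, and its deposited level was 8.54 in trained and 6.95 in naive animals. The others were in the 3'UTR of Auts2, a neurodevelopmental regulator, in introns of Rps6ka5 (the kinase MSK1, which acts on CREB and histone H3), Ncoa1, Slc24a2 (a sodium-calcium exchanger) and Frmpd4, and in the 3'UTR of Smyd3. Levels of the naive animals in the deposited table were not at its lowest at any of the 7 of these that are listed, and the differences were 0.70 to 1.59.

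The strongest lost regions were a region outside protein-coding genes (chr1:75188592-75189209), with a fold enrichment of 2.56, 2.56 and 7.01 in the naive animals, and the CDS of Ppargc1a, the coactivator PGC-1α of mitochondrial genes, with 4.50, 6.53 and 4.28. An intron of Lphn3, an adhesion receptor, had 6.97, 4.79 and 6.09 in naive animals. Further ones were a second region outside genes (chr16:91112110-91112451), introns of Tcte2, Lcmt1, Zc3h18, the cation channel Trpm3 and the potassium channel Kcnh7, and the CDS of Trim17. Of 135 regions called in the immediate-early genes 0 were gained and 1 was lost (0.741%), beside 0.557% gained and 0.178% lost of all regions called. The lost region was in an intron of the nuclear receptor Nr4a2 (chr2:56968379-56968653), with 4.01, 5.90 and 4.69 in naive animals.

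By role, gained and lost regions in the other lists were few, and their shares are set beside 0.557% gained and 0.178% lost of all regions called. Glutamate receptors had 3 gained regions of 330 called (0.909%), among them introns of Grik1 (4.38, 9.14 and 5.25 in trained animals) and Grm3 (3.96, 3.14 and 3.68), and 2 lost ones (0.606%), among them the CDS of Grin2d (2.52, 4.79 and 5.92 in naive animals). At inhibitory synapses a region was gained in an intron of Gphn, the scaffold gephyrin (4.87, 3.32 and 4.20 in trained animals). Postsynaptic genes gained regions in introns of Kalrn and Lrrtm4 (0.388% of 515 called) and lost one in Lrrc7, and presynaptic genes gained them in introns of Rims1, Nrxn2 and Stx1a (0.811% of 370). Voltage-gated channels gained intronic regions in Cacna1c, a pore subunit of L-type calcium channels (a region it shares with Dcp1b), and Cacna2d1, an auxiliary subunit (0.474% of 422), and lost 1 in the CDS of Cacna1h and 1 in an intron of Kcnh7.

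Synaptic adhesion genes gained 6 regions of 808 called (0.743%), all intronic, in Csmd3, Csmd1, Cadm2 (2 regions), Ntng1 and Ncam1, and lost 1 in Lphn3 (0.124%). The splicing factor Srrm4 gained an intronic region with 5.60, 5.17 and 5.34 in trained animals, the CA3 marker Cpne4 one and the dentate gyrus marker Prox1 one. Genes of the m6A machinery (writers, erasers and readers) had 0 gained and 0 lost of 80 regions called. The counts were also 0 for CREB and TrkB signalling (140 called) and oxidative phosphorylation (15 called). These stand beside low shares over all regions called, 0.557% gained and 0.178% lost. In none of the lists did a region pass the fit of enrichment (limma, 0 in each direction). At an unadjusted p under 0.05 there were 4 higher and 2 lower of 99 fitted regions of glutamate receptors, 6 and 2 of 154 of voltage-gated channels and 5 and 5 of 185 of synaptic adhesion genes, beside 4.3% over all regions.

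To see whether the same regions changed elsewhere, they were read in animals that had no part in their choice: trained and naive KI mice (HdhQ7/Q111, with an expanded huntingtin allele) of 8 months and WT mice of 5 months. The 303 gained regions had a peak in 46.9%, 31.0% and 33.7% of cases in the 3 trained KI animals and in 63.0%, 47.5% and 65.7% in the 3 naive KI animals (exact permutation p = 0.1, the smallest possible, adjusted p = 0.533 over 16 tests). At 5 months they had a peak in 32.3%, 13.2% and 42.6% of cases in trained and 48.5%, 47.5% and 40.9% in naive WT animals (exact permutation p = 0.2). The gained regions thus showed no higher share of calls after training in these animals, and neither difference passed the test. Peak numbers were 32461, 38193 and 30550 peaks in trained and 51735, 37948 and 57293 in naive KI animals. All 54365 regions called in any of the 6 animals were also called less on average, in 52.5% ± 1.8 of cases in trained and 66.9% ± 8.2 in naive KI animals and in 41.5% ± 4.4 in trained and 49.7% ± 4.6 in naive WT animals of 5 months (SD, n = 3 each, exact permutation p = 0.1 for both). In KI mice 1 of the 303 gained regions had a peak in all 3 trained and no naive animal and 10 had the reverse, beside 26 and 863 of the 54365. In WT mice of 5 months the counts were 1 and 7, beside 22 and 452.

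With the best 22601 peaks of each animal, the gained regions had a peak in 15.8% ± 3.3 of cases in trained and 13.2% ± 3.3 in naive KI animals (SD, n = 3 each, exact permutation p = 0.5). At 5 months the values were 20.8% ± 7.8 in trained and 22.0% ± 3.9 in naive WT animals (exact permutation p = 0.9). Lost regions gave 14.8% ± 2.1 in trained and 17.2% ± 7.0 in naive KI animals (exact permutation p = 0.7). None of these differences exceeded the spread between animals.

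**Figure D5:**
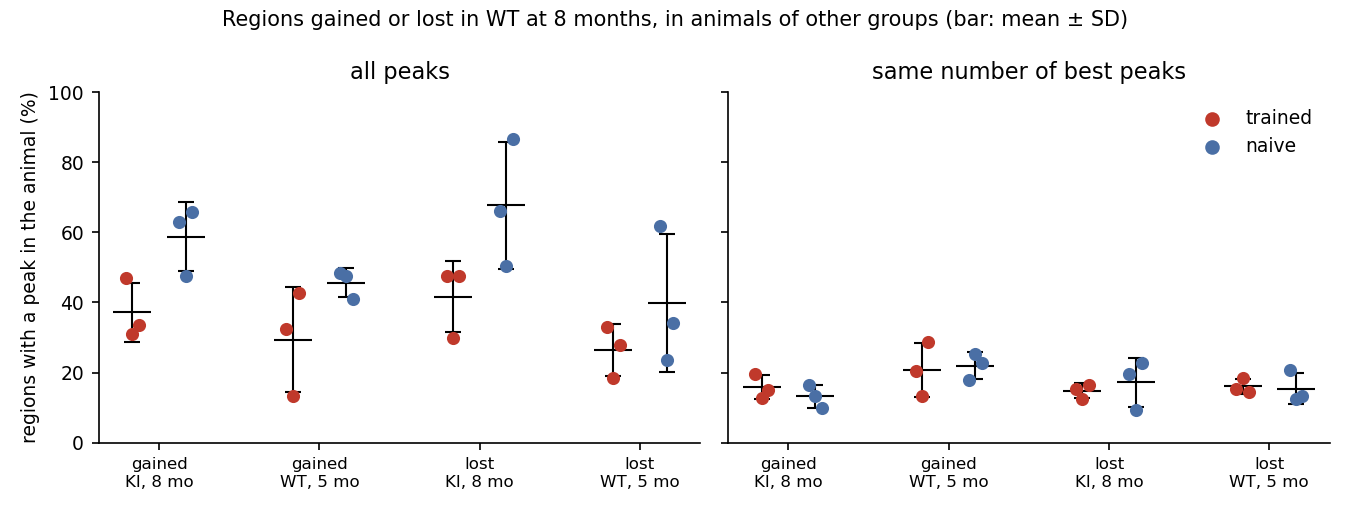
Share of the 303 gained and 97 lost regions with a peak (y axis, %) in each animal of KI mice of 8 months and WT mice of 5 months, trained and naive, with all peaks (left) and with the best 22601 peaks of each animal (right), and bars for mean ± SD. With all peaks both sets are called less often in trained than in naive animals on average, and with equal numbers the groups overlap in all 4 comparisons.

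The peaks with a level over 1 higher in trained WT animals of 8 months lay in 469 regions, which had a peak in 58.4% ± 10.2 of cases in trained and 75.5% ± 6.6 in naive KI animals (SD, n = 3 each, exact permutation p = 0.2). The 239 regions of peaks over 1 lower had 62.3% ± 6.6 in trained and 84.5% ± 8.0 in naive KI animals (exact permutation p = 0.1), and all regions 52.5% in trained and 66.9% in naive KI animals. With equal numbers of peaks the shares of the 469 regions were 32.0% ± 7.0 in trained and 27.7% ± 4.3 in naive KI animals (exact permutation p = 0.6) and 45.9% ± 5.8 in trained and 46.1% ± 5.9 in naive WT animals of 5 months (exact permutation p = 1).

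The difference between the training effects was also fitted directly. In the 16557 regions with a peak in all 12 animals of 8 months, 0 regions had an effect in WT that differed from that in KI mice (limma interaction, smallest adjusted p 0.32, 880 regions at an unadjusted p under 0.05). Between WT mice of 8 and of 5 months 0 of 12755 regions differed (limma interaction, smallest adjusted p 0.9997, 495 regions at an unadjusted p under 0.05). In peak number, with training the mean rose by 3066 in WT and fell by 15257 in KI mice of 8 months, a difference of 18323 (exact permutation within genotypes, 400 arrangements, p = 0.07), and with peaks of -log10 q of 3 or more a difference of 12657 (p = 0.025 in the same exact test). With peaks of -log10 q of 5 or more the difference was 6359 (exact permutation p = 0.1). At 5 months the mean of WT mice fell by 6654 with training, and the effect at 8 months was 9720 above that (exact permutation p = 0.09). Among KI mice of 8 months, naive animals 1 and 3 had many short peaks. Median peak lengths were 172, 326 and 197 bp in naive and 440, 202 and 446 bp in trained KI animals. Bases under peaks overlapped between these groups, at 20.13, 13.02 and 19.31 Mb in trained and 15.64, 18.67 and 20.01 Mb in naive KI animals. Whether the training effect on bases differed between genotypes was not tested.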

How the data were processed

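m6A-IP libraries of the hippocampus of 24 mice were read as peak lists, and the 6 of WT mice of 8 months were compared. According to the methods and the submitters' processing notes, the authors aligned reads to mm9 with STAR 2.7.3a, called peaks for each IP against its own input with MACS2 2.2.6, and compared conditions with DiffBind 2.8.0. The deposited peak lists give the fold enrichment at the summit (a ratio of IP over input) and the -log10 of the q-value. The deposited table gives the authors' mean level of each group on the log2 scale. Whether the input was subtracted from these levels is not given in the sources used here. Its header line is the same in all 10 tables and names other conditions, so the columns were read in the order that the series description gives for this table. This order was checked against the peak calls per animal. Fold changes and p-values of the tables hold the authors' own comparisons and were not used. Input libraries were not analysed.

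Peaks of 24 animals that overlap by at least 1 bp were joined with bedtools 2.31.1. Regions with a peak in all 6 animals were tested with limma 3.58.1 in R 4.3.3 (eBayes with trend) on log2 fold enrichment of the highest peak, centred on each animal's median, with Benjamini-Hochberg adjustment over all regions. This choice leaves out regions without a call in some animal. Values per animal were compared with 2-sided exact permutation tests (scipy 1.17.1). Summits were placed in CDS, 3'UTR, 5'UTR or intron, in this order, of GENCODE vM1 protein-coding genes of NCBIM37, which overlapping genes can blur. A region took the summit of its peak with the highest -log10 q over all 24 animals. Listed peaks were placed by their centre, so a region and its listed peak can carry different parts. The fit was tested on simulated data. Alternatives were peak thresholds, overlap, scaling, the regions fitted, windows, and leaving out each animal.

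Members and gene lists were chosen with earlier results of these data known. Genes are named by these rules: the 5 regions of smallest p in each direction (none passed), the 10 gained and 10 lost regions with the strongest calls, the 10 listed peaks with the largest difference in each direction and both groups above the lowest level, the immediate-early genes, and members of other lists that were gained or lost. Fitted values of immediate-early genes, and of other genes outside these rules, were chosen for print after their values were seen. A few genes that these rules name are not reported here.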

Additional observations from a re-analysis of the deposited data

How the results depend on the processing

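No paired analysis was possible because each library comes from a different animal and the labels give the groups no shared replicate numbers. The count of 0 regions with changed enrichment held under every alternative run, as did that of both interactions. Gained regions numbered 121 when overlap had to reach 50%, with 45 of the 303 among them, and 151 at equal peak numbers, where lost regions numbered 194. Leaving out 1 animal gave 585 to 1100 gained and 187 to 626 lost regions, since fewer calls then suffice. Without trained animal 3 and naive animal 2, an alternative chosen after seeing the data, there were 1172 gained and 553 lost regions. A difference of level over 2 was found in 75 peaks higher and 58 lower in trained animals. The difference between genotypes in peak number was 12657 for peaks of -log10 q of 3 or more and 6359 for 5 or more. The difference in peak number within WT was 241.3 to 6386 when 1 animal was left out.

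Several differences within the spread between animals changed sign when 1 animal was left out, and the cause was not tested. Bases covered then ranged between -2.35 and 1.59 Mb, the share in 3'UTRs between -0.19 and 1.13 percentage points, the share in introns between -0.44 and 3.53 and the GGAC share between -1.45 and 0.36. Fitted log2 differences in enrichment ranged between -0.24 and 0.41 for the CDS of Cyr61, -0.24 and 0.10 for Dusp1, -0.67 and 0.12 for Fos, -0.25 and 0.32 for the 3'UTR and -0.32 and 0.38 for the 5'UTR of Fosb, -0.59 and 0.20 for Ier2 and -0.012 and 0.53 for Sik1. Egr2 was at 0.016 with the mean over the peaks of a region. The other 22 named regions kept their sign. Regions without a call in all 6 animals have no enrichment value here, and the read depth of each library was not analysed here.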
